A study of Mus musculus with 4 samples.

Results

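*Fos*, *Fosb*, *Jun*, *Junb*, *Egr1*, *Atf3*, *Klf6*, *Ier2*, *Btg2* and *Dusp1*, immediate early and stress genes that cells switch on within minutes of a stimulus, were followed through single-nucleus RNA-seq of mouse kidney. They were chosen by gene symbol, with earlier results of these data known, and all 10 are among the 31053 genes counted. Nuclei came from a middle kidney slice of 4 male mice aged 12 weeks, with 1 library per mouse; some cortex was trimmed off to enrich the medulla, and proximal tubule and podocyte nuclei were still present. Both controls were Cre-negative *Tfap2a* fl/fl mice, and both knockouts were *Hoxb7Cre*+;*Tfap2a* fl/fl mice, so all 4 mice carried the floxed alleles of the transcription factor TFAP2A. *Hoxb7Cre* is known to recombine in the collecting ducts and the lower urinary tract epithelium. With 2 mice per group, the smallest 2-sided p of an exact permutation test is 0.333, and every p-value below comes from a model across all genes. Those between genotypes measure the spread between these mice. Those between cell classes measure the spread that is left after a term for the mouse.

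Immediate early genes need no new protein to be transcribed: kinases of the MAPK and cAMP pathways phosphorylate factors such as SRF partners and CREB that already sit at their promoters, and both mRNA and protein are short-lived. In kidney they are known to rise with ischemia, osmotic stress and hormones such as vasopressin. FOS, FOSB, JUN, JUNB and ATF3 are leucine-zipper proteins that pair into AP-1 and related dimers, EGR1 and KLF6 are zinc-finger factors, IER2 is a small nuclear regulator, BTG2 is an antiproliferative partner of the mRNA deadenylation machinery, and DUSP1 is the phosphatase that switches MAPKs off again.

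The libraries held 42138345 and 24998797 UMIs (distinct RNA molecules) in the controls and 44964099 and 22179410 in the knockouts, with 27343 nuclei kept. Clusters were named from marker genes, without use of the 10 genes or of other early genes, and 25556 nuclei fell into 12 classes that are called by the cell type they resemble. These were proximal tubule (13691 nuclei), thick ascending limb (5197), endothelial cell (1682), collecting duct principal cell (CD-PC, 1255), thin limb (851), distal convoluted tubule (764), connecting tubule (743), intercalated cell (657), interstitial cell (238), deep medullary epithelium of the pelvis (222), podocyte (148) and immune cell (108). In 9 classes every marker was highest in its own class; the exceptions were CD-PC (5 of 9 markers), thin limb (6 of 9) and connecting tubule (6 of 7). The names were rebuilt here and may differ from those of the study. Any pair of libraries shared at most 18 barcodes. *Tfap2a* stood at 58.6 and 98.6 CPM (UMIs of a gene per 1000000 UMIs of the class) in CD-PCs of the controls and at 66.5 and 109.6 CPM in those of the knockouts, which checks no label, because 3' counting can read outside the deleted exons. In the pelvic epithelium it had 11 and 11 UMIs in the controls and 0 and 0 in the knockouts, which allows up to 22.2 and 18.6 CPM there. In the connecting tubule it stood at 114.6 and 128 CPM in the controls and lower, at 73.2 and 70.4 CPM, in the knockouts, without overlap. edgeR called neither difference (adjusted p 0.751 in the pelvic epithelium and 1.00 in the connecting tubule).

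Levels below are CPM of the UMIs of a class summed per mouse, and mice are given in the order control 1, control 2, knockout 1, knockout 2. A level compares classes and mice, not genes. The 10 genes together gave 549, 469, 576 and 526 CPM in the pelvic epithelium, 492, 396, 373 and 503 CPM in CD-PCs, and 485, 532, 477 and 514 CPM in endothelial cells. They gave 63.6, 56.8, 64.7 and 107 CPM in the proximal tubule and 149.6, 152, 160.0 and 149.5 CPM in the thick ascending limb. The small immune class was as high, at 577, 465, 422 and 457 CPM, and podocytes (198 to 546 CPM) and interstitial cells (243 to 508 CPM) reached the same range in some mice. The lowest mouse of pelvic epithelium, CD-PCs, endothelial cells and immune cells lay above the highest mouse of both tubule classes, which hold most of the nuclei. Depth differs between classes, with a median of 3630 UMIs per nucleus in CD-PCs, 1484 in endothelial cells and 3186 in the proximal tubule. After each nucleus was thinned to 1000 UMIs, 33.1%, 29.8%, 30.3% and 32.0% of CD-PC nuclei and 40.8%, 41.5%, 39.9% and 38.5% of endothelial nuclei held at least 1 UMI of the 10 genes, against 6.76%, 4.82%, 5.81% and 9.55% in the proximal tubule.

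**Figure D1:**
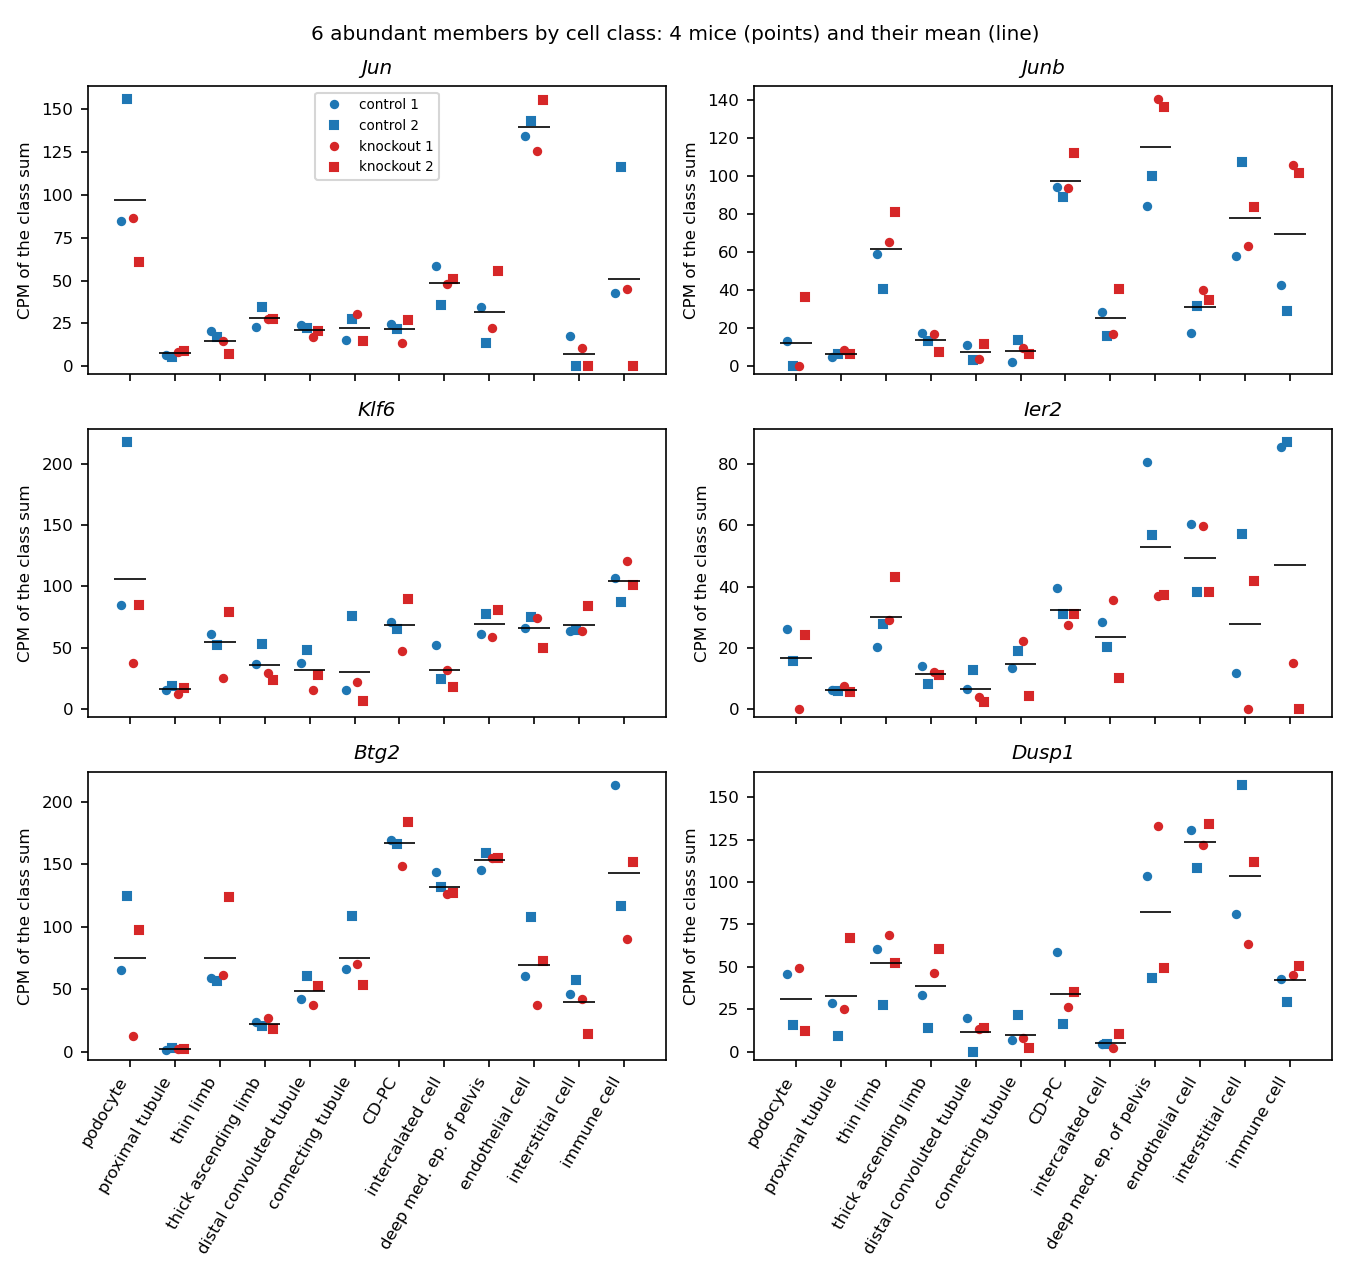
Level of the 6 more abundant genes (CPM of the class sum) in each of 12 classes, 1 point per mouse, with the mean of the 4 mice as a line. *Btg2* and *Junb* stand high in CD-PCs and pelvic epithelium, *Jun* and *Dusp1* in endothelial cells, and all 4 mice of the proximal tubule lie at the low end for *Btg2*.

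Each gene was then compared between a class and the mean of the other classes by edgeR's quasi-likelihood test on the sums, with the mouse as a term. Of 120 contrasts 50 were called at an adjusted p (Benjamini-Hochberg) under 0.05, 28 higher and 22 lower. Over all genes tested the share called was 24.2%, with 16.8% higher and 7.35% lower. Of the 10 genes, 7 were higher in CD-PCs, where 25.7% of all genes were, 7 in endothelial cells (18.9%) and 5 in the pelvic epithelium (15.8%), with 0 lower in these 3 classes. In nuclei under 1% mitochondrial UMIs these counts were 5, 4 and 5, and with edgeR's own filter on low counts they were 5, 5 and 4. In CD-PCs and endothelial cells 1 of the 7 was *Fosb*, on 6 UMIs in each class. In turn 7 were lower in the proximal tubule (14.1%), 5 in the thick ascending limb (8.86%) and 3 in the distal convoluted tubule (8.51%), with 0 higher. The count of 5 in the thick ascending limb was 3 without control 1 or without knockout 2, and without either control *Dusp1* was called higher in both the thick ascending limb and the proximal tubule. In immune cells, with 108 nuclei, edgeR called 0, and 2 had an unadjusted p under 0.05. Class sums of a mouse share its library, so these p-values compare classes within the same 4 libraries.

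*Jun*, the central AP-1 partner, was highest in endothelial cells, with 134, 143, 126 and 155 CPM. It was 2.48 ± 0.15 (SE) log2 units above the other classes there (edgeR adjusted p 5.79e-32). Podocytes followed with 85.1, 156, 86.5 and 60.7 CPM, overlapping the endothelial range, and were also called higher (log2 difference 1.73 ± 0.33). Intercalated cells held 58.8, 35.7, 48.2 and 50.9 CPM and were 0.81 ± 0.22 log2 units higher (adjusted p 0.00272). In the proximal tubule *Jun* stood at 6.59, 5.36, 8.43 and 9.08 CPM, over 10 times below the endothelial level in every mouse, and was lower by test (log2 difference -1.72 ± 0.20). Thin limb (-0.99 ± 0.28) and interstitial cells (-2.06 ± 0.59) were lower too, the second on 4 UMIs and not without control 2 (adjusted p 0.0954). In nuclei under 1% mitochondrial UMIs the calls in the proximal tubule (log2 -0.74) and thin limb (-0.64) were lost, and the thin limb also lost its call at clustering resolution 0.8 (adjusted p 0.124). CD-PCs lay between, with 24.4, 21.8, 13.7 and 26.7 CPM and no call. The endothelial class held 11.7% called doublets; without called doublets the mean *Jun* level there was 159 CPM, against 139.6 ± 12.7 (SD, n = 4) with them.

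*Junb*, a JUN relative that can dampen JUN activity, followed another order. It was highest in the pelvic epithelium (84.5, 100.3, 140.4 and 136 CPM) and in CD-PCs (94.4, 88.8, 93.9 and 112 CPM), whose ranges overlap; in nuclei under 1% mitochondrial UMIs the small immune class had the highest mean instead. Both classes were called higher, by 2.17 ± 0.22 (adjusted p 3.03e-15) and 2.07 ± 0.15 (adjusted p 1.08e-24) log2 units. Interstitial cells (58.2, 107, 63.3 and 83.8 CPM) and thin limb (58.8, 40.5, 65.2 and 81.2 CPM) were higher too, by 1.51 ± 0.32 and 1.15 ± 0.21 log2 units. Endothelial cells, the class with most *Jun*, held 17.3, 31.8, 39.9 and 34.5 CPM of *Junb*, entirely below the thin limb, and were not called. The gene was lower in the proximal tubule (-1.90 ± 0.20), distal convoluted tubule (-1.94 ± 0.38), connecting tubule (-1.81 ± 0.35) and thick ascending limb (-0.90 ± 0.20), the last of which lost its call without knockout 2 (log2 -0.51).

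*Fos*, the partner that JUN proteins need for the classical AP-1 dimer, was sparse, with 71 UMIs in all nuclei. CD-PCs held 31 of the 68 UMIs that fell in classes, as 13, 7, 5 and 6 UMIs or 9.89, 3.81, 5.28 and 8.43 CPM. That was 2.10 ± 0.45 log2 units above the other classes (adjusted p 4.46e-05). The proximal tubule, with over 10 times as many nuclei, held 6 UMIs of *Fos*, and its lower level (-2.98 ± 0.59) lost its call when either control was left out (log2 -1.90 and -2.33). The thick ascending limb was lower by 2.37 ± 0.73 log2 units on 3 UMIs, a call also lost without either control (log2 -1.01 and -1.32). The pelvic epithelium was higher by 1.92 ± 0.74 (adjusted p 0.0488) on 7 UMIs and lost the call without any 1 of the mice (adjusted p 0.0673 to 0.274).

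*Fosb*, a FOS relative, had 18 UMIs in all and *Atf3*, a stress-induced repressor, 70. *Fosb* was called higher in CD-PCs on 6 UMIs (2.55 ± 0.88) and lost that call without control 1 or knockout 1 (adjusted p 0.254 and 0.0648). Its call in endothelial cells (edgeR adjusted p 0.00858) rests on 6 UMIs that all came from knockout 2, from 2 of its 286 endothelial nuclei. The log2 difference turned to -1.55 without that mouse. *Atf3* stood at 7.69, 6.36, 8.22 and 1.92 CPM in endothelial cells and at 8.71, 4.46, 4.20 and 2.55 CPM in intercalated cells, the 2 classes in which it was called higher (2.59 ± 0.60 and 2.17 ± 0.77). The intercalated call was lost without control 1 or knockout 1 (adjusted p 0.235 and 0.12), and the endothelial call in nuclei under 1% mitochondrial UMIs (adjusted p 0.141). CD-PCs, the class with most *Fos* UMIs, held 2 UMIs of *Atf3*.

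**Figure D2:**
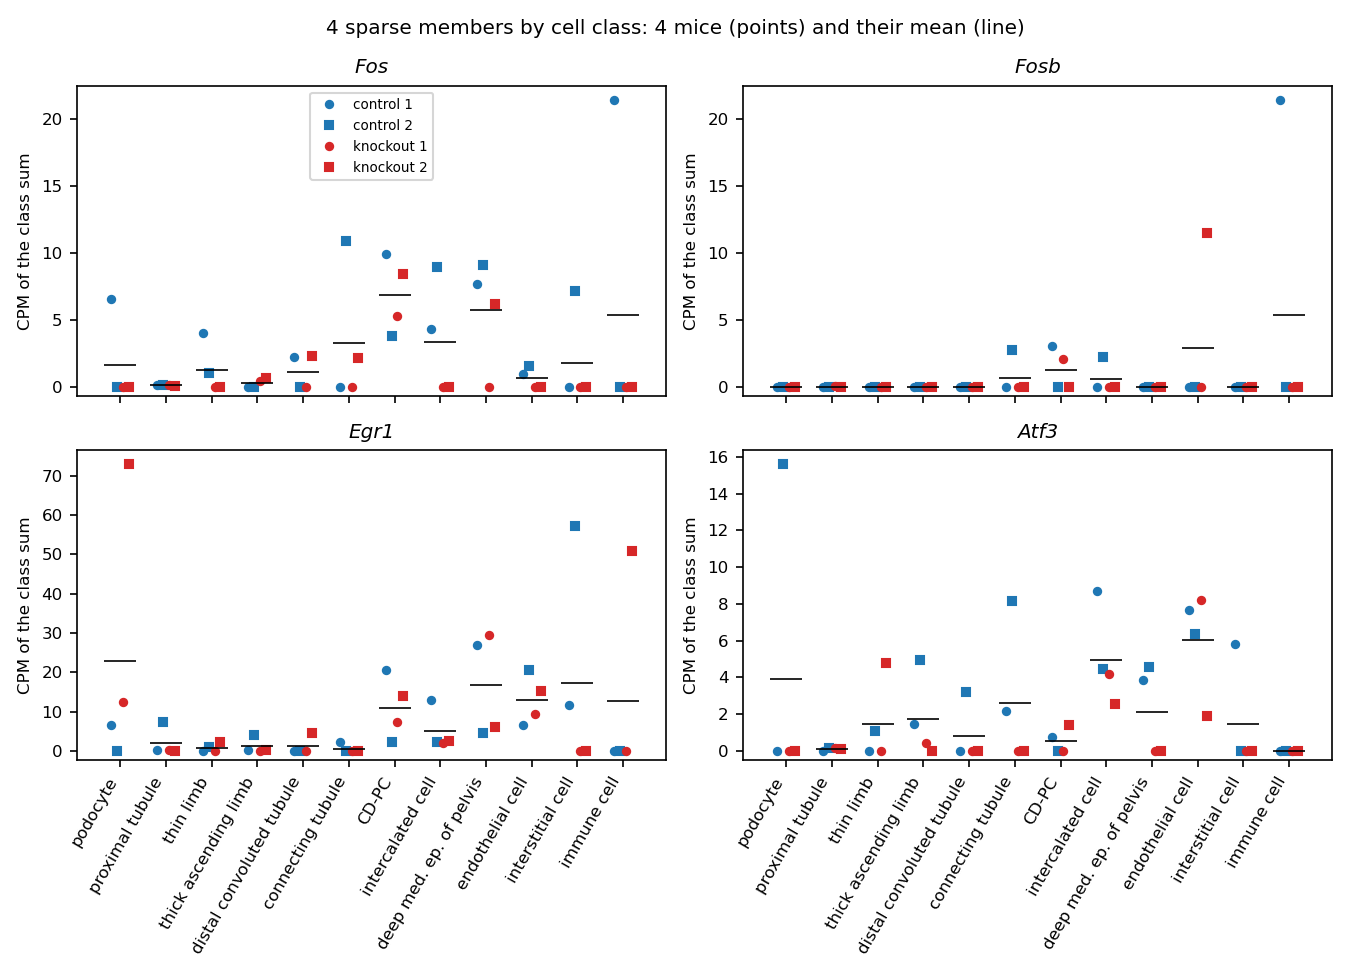
Level of the 4 sparse genes *Fos*, *Fosb*, *Egr1* and *Atf3* (CPM of the class sum) in each of 12 classes, 1 point per mouse, with the mean of the 4 mice as a line. Many mice lie at 0, the *Fosb* level of endothelial cells comes from knockout 2 alone, and *Egr1* in the small podocyte and interstitial classes ranges from 0 to 72.8 CPM and from 0 to 57.2 CPM.

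*Egr1*, a factor induced through SRF, had 204 UMIs. Endothelial cells held 6.73, 20.6, 9.39 and 15.3 CPM and were 1.72 ± 0.54 log2 units higher (adjusted p 0.00985). CD-PCs held 20.6, 2.18, 7.39 and 14.1 CPM, a spread of almost 10-fold between both controls, and were 1.65 ± 0.52 higher, a call lost without control 1 (adjusted p 0.134). In knockout 2 the 10 CD-PC UMIs came from 3 nuclei, and 8 of them from a single nucleus. In the proximal tubule the gene stood at 0.155, 7.42, 0.147 and 0 CPM, that is 2, 54, 2 and 0 UMIs, and the 54 UMIs of control 2 were spread over 45 nuclei. Free RNA, taken from barcodes under 100 UMIs, held *Egr1* at 1.01, 7.33, 2.38 and 1.30 CPM, so control 2 was highest in both. After subtraction of the free RNA the proximal tubule stood at 0.0861, 7.42, 0 and 0 CPM. Its lower level (-1.40 ± 0.58) lost the call without control 1 or knockout 1 and was 0.06 without knockout 2; the thick ascending limb (-1.78 ± 0.71) lost its call without control 1 or knockout 2 (log2 -1.29 and -0.55).

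*Klf6*, a tumor suppressor and injury-response factor, had the smallest ratio between its highest and lowest class means among the 6 more abundant genes. It stood at 70.8, 65.3, 47.5 and 89.9 CPM in CD-PCs, 66.3, 74.7, 74.0 and 49.9 CPM in endothelial cells and 107, 87.2, 121 and 101.5 CPM in immune cells. The means of pelvic epithelium, interstitial cells, CD-PCs and endothelial cells lay between 66.2 and 69.6 CPM and their ranges overlapped. Differences from the other classes were small, with 0.57 ± 0.16 in CD-PCs (lost without knockout 2, adjusted p 0.0541), 0.51 ± 0.17 in endothelial cells (lost without knockout 1, adjusted p 0.24) and 0.97 ± 0.32 in podocytes (lost without control 2, adjusted p 0.431). The proximal tubule was lowest, at 16.0 ± 2.71 CPM (SD, n = 4), with a log2 difference of -1.37 ± 0.15 (adjusted p 2.45e-14). Connecting tubule (-0.72 ± 0.25) and intercalated cells (-0.69 ± 0.24) were lower as well, the first not without control 1, knockout 1 or knockout 2 (adjusted p 0.0539 to 0.232) and the second not without control 2 or knockout 2 (0.289 and 0.105).

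*Ier2* was highest in the pelvic epithelium, with 80.6, 57.0, 37.0 and 37.1 CPM, and in endothelial cells, with 60.5, 38.1, 59.9 and 38.4 CPM. Both classes were called higher, by 1.48 ± 0.28 and 1.32 ± 0.20 log2 units, and their ranges overlapped. CD-PCs held 39.6, 31.0, 27.4 and 30.9 CPM and were 0.73 ± 0.20 higher (adjusted p 0.00147). The proximal tubule stood at 6.21 ± 0.893 CPM and the distal convoluted tubule at 6.37 ± 4.65 CPM (SD, n = 4), and both were lower (-1.56 ± 0.19 and -1.94 ± 0.42). The thick ascending limb was lower by less (-0.82 ± 0.21) and lost its call without control 2 (adjusted p 0.0832). In nuclei under 1% mitochondrial UMIs the calls of *Ier2* in the proximal tubule (log2 -0.63) and distal convoluted tubule (-1.53) were lost as well.

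*Btg2* and *Dusp1* both act to end a response, and both carry the full cyclic-AMP response element, TGACGTCA, in the 300 bases around their start (250 before and 50 after). The promoters of 8 of the 10 genes, not those of *Egr1* and *Ier2*, matched the promoter table used here, taken from RefSeq's GRCm38.p6, and the palindrome, which reads the same on both strands, occurred in these 2 of the 8 and in 1.79% of all 32851 promoters. Its core, TGACG or CGTCA on the other strand, which the full element contains, occurred in 6 of the 8 (*Atf3*, *Btg2*, *Dusp1*, *Fos*, *Fosb* and *Junb*) and in 20.8% of all promoters. The 250 bases before the start are shown for *Btg2* (minus strand, chr1:134079156-134079405), *Dusp1* (minus strand, chr17:26508473-26508722) and, as the textbook early gene, *Fos* (plus strand, chr12:85473640-85473889), written 5′ to 3′ along the gene with the core on either strand in capitals.
Btg2: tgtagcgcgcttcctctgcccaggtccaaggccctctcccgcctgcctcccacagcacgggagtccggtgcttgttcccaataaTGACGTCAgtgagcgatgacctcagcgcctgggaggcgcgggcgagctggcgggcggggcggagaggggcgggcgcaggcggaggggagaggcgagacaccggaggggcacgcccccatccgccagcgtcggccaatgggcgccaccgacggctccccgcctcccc
Dusp1: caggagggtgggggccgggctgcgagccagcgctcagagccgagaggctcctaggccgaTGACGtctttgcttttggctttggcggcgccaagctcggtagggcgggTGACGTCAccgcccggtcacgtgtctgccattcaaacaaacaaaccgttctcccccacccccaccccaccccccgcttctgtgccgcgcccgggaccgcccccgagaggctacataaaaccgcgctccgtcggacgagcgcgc
Fos: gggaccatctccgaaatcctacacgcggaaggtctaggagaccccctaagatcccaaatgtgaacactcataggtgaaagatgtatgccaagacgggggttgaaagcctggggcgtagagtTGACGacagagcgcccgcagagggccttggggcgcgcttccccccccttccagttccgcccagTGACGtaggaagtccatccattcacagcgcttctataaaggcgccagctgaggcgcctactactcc
The element began 166 bases before the start in *Btg2* and 143 bases before it in *Dusp1*, with a further core at 191 in *Dusp1* and cores at 129 and 66 in *Fos*. These are matches of letters, with no measure of binding. In the same build *Btg2* spans chr1:134074865-134079155, *Dusp1* chr17:26505591-26508472 and *Fos* chr12:85473890-85477274.

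*Btg2* showed the widest range between classes among the 6 more abundant genes. It stood at 169.7, 167, 149 and 184 CPM in CD-PCs and at 1.71, 3.02, 1.98 and 2.25 CPM in the proximal tubule. CD-PCs were 1.76 ± 0.12 log2 units above the other classes (adjusted p 1.23e-26) and the proximal tubule below them (log2 difference -4.72 ± 0.18, adjusted p 4.05e-49). Pelvic epithelium (146, 159.5, 155 and 155 CPM) and intercalated cells (144, 132, 126 and 127 CPM) were higher too, by 1.49 ± 0.18 and 1.29 ± 0.15. Immune cells, at 214, 116, 90.5 and 152 CPM on 23 UMIs, were not called (adjusted p 0.0836). The thick ascending limb, at 22.3 ± 3.90 CPM (SD, n = 4), was lower (-1.30 ± 0.15), and the connecting tubule was slightly higher (0.57 ± 0.17), a call lost without control 2 or knockout 1 (adjusted p 0.0862 and 0.122). The ranges of intercalated cells and thin limb (58.8, 56.5, 61.6 and 124 CPM) did not overlap.

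By nuclei, *Btg2* had a UMI in 45.3% (95% exact interval 39.8 to 50.8), 36.6% (32.2 to 41.1), 35.04% (29.2 to 41.2) and 35.7% (29.0 to 42.8) of CD-PC nuclei. In the proximal tubule, at 3186 median UMIs against 3630, the shares were 0.544% (0.341 to 0.823), 1.07% (0.666 to 1.64), 0.620% (0.409 to 0.900) and 0.750% (0.486 to 1.10). The CD-PC shares lay above those of the proximal tubule in every mouse. Free RNA, taken from barcodes under 100 UMIs, held *Btg2* at 14.1 to 31.2 CPM over the mice, above the proximal tubule and below CD-PCs in every mouse. Intervals and limits for a count of 0 cover counting error only.

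*Dusp1* followed a different order from *Btg2*. Endothelial cells held 131, 108, 122 and 134 CPM and were 2.11 ± 0.19 log2 units higher (adjusted p 4.81e-19). Interstitial cells (81.4, 157, 63.3 and 112 CPM) and pelvic epithelium (104, 43.3, 133 and 49.5 CPM) were higher by 1.74 ± 0.35 and 1.38 ± 0.30. Intercalated cells, where *Btg2* was high, held 4.35, 4.46, 2.10 and 10.2 CPM of *Dusp1* on 9 UMIs and were lower by 2.96 ± 0.47 log2 units (log2 difference -2.96, edgeR adjusted p 1.11e-07). Free RNA, given below, held *Dusp1* above the intercalated level in every mouse, and its part in these 9 UMIs was not tested. Connecting tubule and distal convoluted tubule were lower as well (-1.89 ± 0.40 and -1.47 ± 0.39). In CD-PCs the gene stood at 58.6, 16.3, 26.4 and 35.1 CPM, with no call.

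The mice differed in *Dusp1* in the long tubule segments. The proximal tubule held 28.5, 9.49, 25.2 and 67.2 CPM and the thick ascending limb 33.6, 13.8, 46.1 and 60.7 CPM, so control 2 was lowest and knockout 2 highest in both. Endothelial cells had the same lowest and highest mouse, but in a narrower range of 108 to 134 CPM. Free RNA held *Dusp1* at 42.7, 22.7, 37.3 and 112 CPM, with the same lowest and highest mouse and above the proximal tubule in every mouse. After subtraction of the free RNA, an estimated 10.1%, 5.57%, 12.5% and 3.40% of the class sums, the proximal tubule stood at 26.9, 8.73, 23.4 and 65.6 CPM. Median mitochondrial UMIs per nucleus were 1.66%, 0.671%, 1.05% and 0.417% in the same mice, and the part of free RNA or of mitochondrial content in these levels was not tested. By nuclei, 8.11% (95% exact interval 7.29 to 8.995), 3.32% (2.57 to 4.22), 7.21% (6.46 to 8.02) and 17.7% (16.4 to 19.0) of proximal tubule nuclei had a UMI, against 1.12% (0.136 to 4.00), 1.28% (0.156 to 4.55), 0.585% (0.0148 to 3.21) and 2.63% (0.722 to 6.60) of intercalated nuclei, whose median was 2311 UMIs.

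Within classes the genes were also uneven. CD-PCs fell into a cluster led by *Aqp2* and *Aqp4*, the water channels of the collecting duct, and one led by *Aqp2* and *Hsd11b2*, the enzyme that inactivates cortisol-type steroids. *Btg2* stood at 200, 239, 223 and 248 CPM in the *Aqp4* cluster and at 77.2, 60.4, 58.4 and 64.3 CPM in the *Hsd11b2* cluster. *Junb* stood at 106, 109.9, 118 and 143 CPM against 58.7, 57.7, 65.4 and 56.3 CPM. Both genes were thus higher in the *Aqp4* cluster in all 4 mice, with no overlap.

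*Jun* had the opposite order in CD-PCs, at 11.1, 10.99, 11.6 and 10.8 CPM in the *Aqp4* cluster and 64.9, 37.6, 16.4 and 56.3 CPM in the *Hsd11b2* cluster. *Dusp1* went with *Btg2*, at 69.7, 22.9, 38.5 and 51.9 CPM in the *Aqp4* cluster and 24.7, 6.71, 11.7 and 4.02 CPM in the other. The ranges for *Dusp1* overlap between mice, but each mouse was higher in its *Aqp4* cluster. These are descriptions, with no test.

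**Figure D3:**
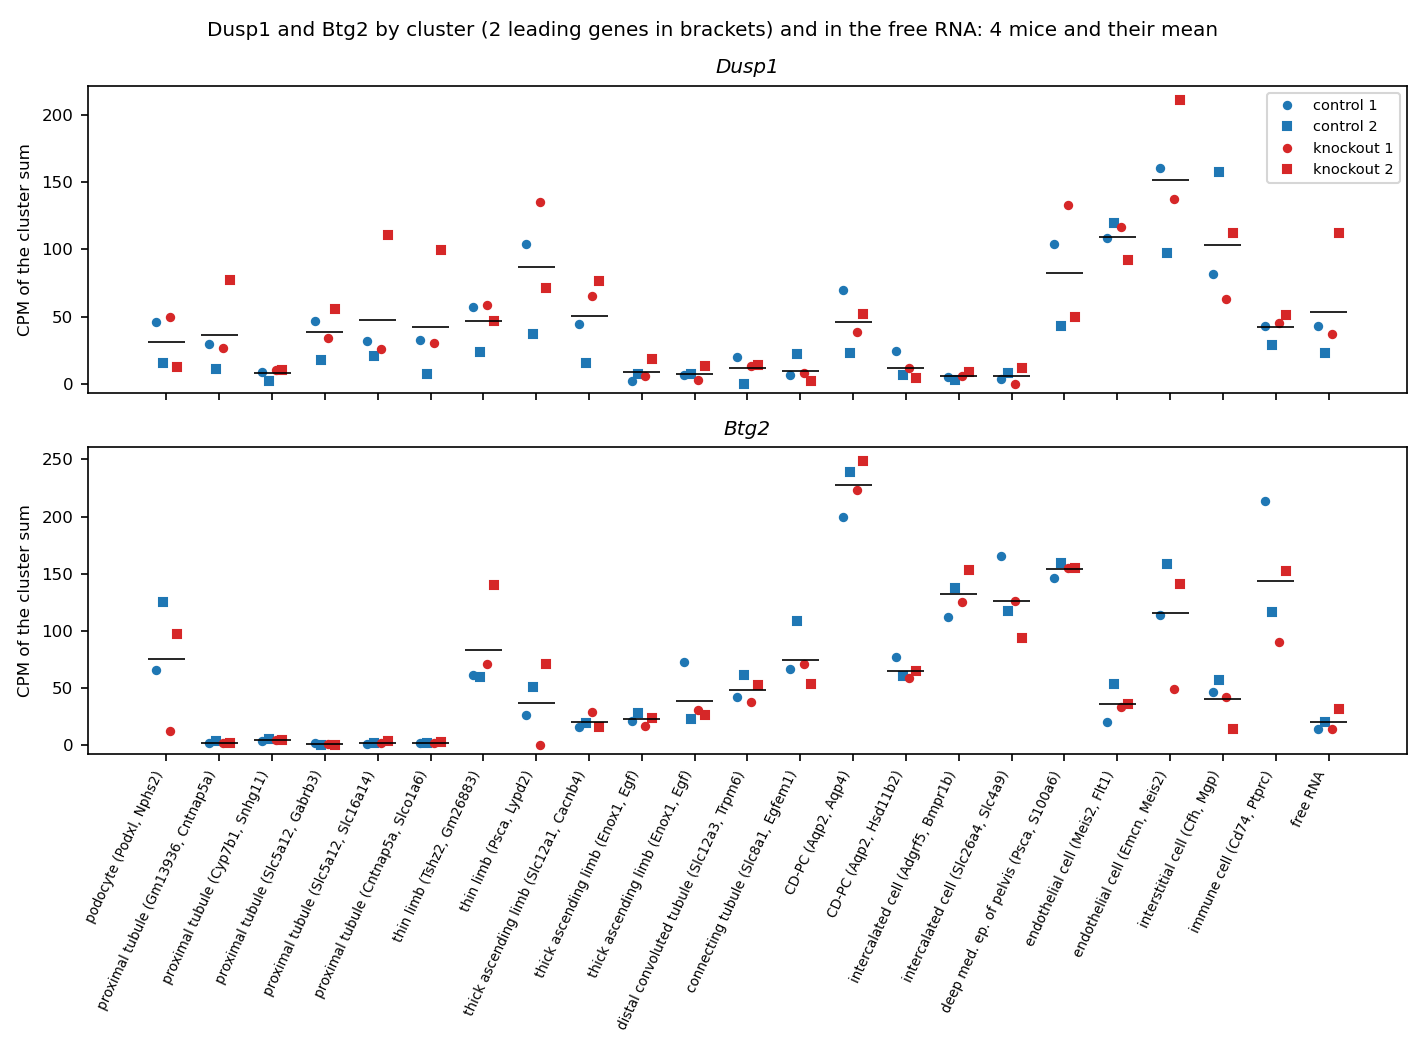
Level of *Dusp1* and *Btg2* (CPM of the cluster sum) in every cluster, labelled with its class and 2 leading genes, and in the free RNA, 1 point per mouse, with the mean of the 4 mice as a line. *Btg2* is highest in the *Aqp2*, *Aqp4* cluster of CD-PCs (200 to 248 CPM), and *Dusp1* is high in 1 of 3 thick ascending limb clusters.

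A finer split of the CD-PC clusters gave 8 subclusters, of which 2 were damaged, 1 was mixed and 1 held 12 nuclei; the remaining 4 hold all other nuclei of the CD-PC class and are described here. *Btg2* stood at 162, 304, 231 and 308 CPM in the subcluster led by *Akr1b3*, which makes the osmolyte sorbitol, and *Slc14a2*, the urea transporter of the inner medulla (367 nuclei), and at 257, 168, 198 and 199.7 CPM in that led by *Aldh1a3* and *Fxyd4* (310 nuclei). It was lower in the *Aqp3*-high subcluster (57.6, 74.5, 68.5 and 80.6 CPM, 289 nuclei) and in that led by *Scnn1b*, a sodium channel subunit, and *Frmpd4* (106, 36.0, 39.7 and 48.1 CPM, 277 nuclei). The lowest value of the first pair of subclusters, 162 CPM, lay above the highest of the second, 106 CPM.

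*Fos* had 11, 4, 5 and 5 UMIs in the *Akr1b3* and *Slc14a2* subcluster (18.4, 6.91, 12.4 and 28.0 CPM), which is 25 of its 31 UMIs in CD-PCs (80.6%), while that subcluster holds 36.6% of all CD-PC UMIs. The other 3 subclusters held 0 to 2 *Fos* UMIs per mouse, at 0 to 8.06 CPM. *Jun* stood at 11.7, 6.91, 12.4 and 5.60 CPM in that subcluster and at 68.0, 44.7, 18.04 and 80.6 CPM in the *Aqp3*-high one, with no overlap. *Junb* stood at 120.2, 114, 109 and 157 CPM in the *Akr1b3* and *Slc14a2* subcluster and at 37.7, 10.8, 53.0 and 32.1 CPM in the *Scnn1b* subcluster. Between genotypes, 25 tests of a gene in these 4 subclusters reached 10 UMIs, with *Fosb* and *Atf3* in none, and edgeR called 0 of them; the lowest unadjusted p was 0.156 (*Egr1* in the *Akr1b3* and *Slc14a2* subcluster).

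**Figure D4:**
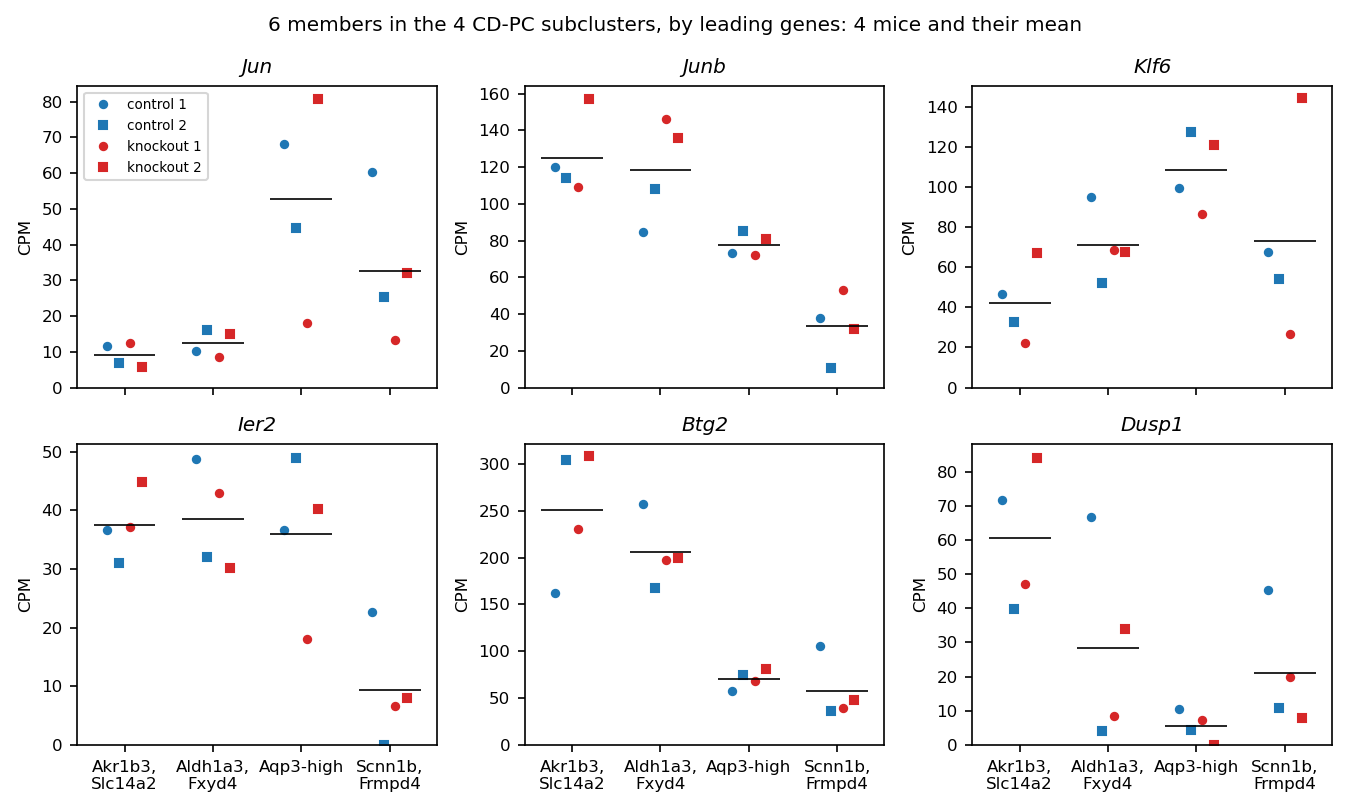
Level of the 6 more abundant genes (CPM of the subcluster sum) in 4 subclusters of CD-PCs named by leading genes, 1 point per mouse, with the mean of the 4 mice as a line. *Btg2* separates the *Akr1b3*/*Slc14a2* and *Aldh1a3*/*Fxyd4* subclusters (162 to 308 CPM) from the others (36.0 to 106 CPM), while *Jun* is lowest in the *Akr1b3*/*Slc14a2* subcluster by its mean.

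In the thick ascending limb *Dusp1* stood at 44.5, 15.6, 65.4 and 76.1 CPM in the largest cluster, led by *Slc12a1*, the loop diuretic target, and *Cacnb4*. The remaining 2 clusters, led by *Enox1* and *Egf*, held 2.36, 7.58, 5.55 and 18.6 CPM and 6.33, 7.61, 3.07 and 12.9 CPM. In the proximal tubule a cluster led by *Cyp7b1* and *Snhg11* held 9.07, 2.14, 10.5 and 9.92 CPM, while the other 4 clusters held 7.21 to 110.3 CPM. Knockout 2 was highest in each of those 4 clusters. In endothelial cells *Dusp1* overlapped between the cluster led by *Meis2* and *Flt1* (108, 119.6, 116 and 92.2 CPM) and that led by *Emcn* and *Meis2* (160.4, 97.5, 138 and 211 CPM). *Btg2* stood at 20.3, 53.1, 33.5 and 35.7 CPM in the first and 114, 158, 48.9 and 140.5 CPM in the second, higher in the second within each mouse, while the ranges of the mice overlap.

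Most nuclei held UMIs of at most 1 of the 10 genes. Of 25556 nuclei, 7267 held at least 1 of them, 1608 at least 2, and 399 at least 3. Of those 399, 157 were CD-PCs, 65 endothelial cells and 53 pelvic epithelium, while 23 were from the proximal tubule. The highest number was 7 genes in 1 nucleus, a CD-PC with 9036 UMIs. Nuclei with more genes were also deeper, with a median of 2829 UMIs for at least 1 gene and 4274 for at least 3, against 3630 for all CD-PCs. After thinning to 1000 UMIs, 7.1%, 6.1%, 3.6% and 6.6% of CD-PC nuclei held at least 2 of the genes. The shares were 7.5%, 7.6%, 5.3% and 11.3% in endothelial cells, above CD-PCs in every mouse. They were 9.0%, 8.6%, 9.7% and 9.7% in the pelvic epithelium and 0.08%, 0.16%, 0.16% and 0.18% in the proximal tubule.

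Other genes of the same response were taken from lists. Of 41 tested early genes outside the 10, 20 were higher and 4 lower in CD-PCs (median log2 difference 0.80, against 0.26 over all genes), where 25.7% of all genes were higher and 9.36% lower. In endothelial cells 23 were higher and 1 lower (1.22 against 0.14), where 18.9% of all genes were higher and 7.02% lower. In the proximal tubule 10 were higher and 17 lower (-0.82 against 0.36), where 36.1% of all genes were higher and 14.1% lower. Endothelial cells were marked by the flow-responsive factor *Klf2* (539.8 ± 83.0 CPM, log2 difference 6.60), *Klf4* (5.46) and *Rhob* (4.19). CD-PCs held more *Btg1*, the closest relative of *Btg2* (332 ± 59.9 CPM, 2.03), *Jund* (1.55) and *Nfkbia*, the NF-kappaB inhibitor (1.74). *Errfi1*, an inhibitor of EGF receptor signaling, went the other way, at 1475 ± 229 CPM in the proximal tubule (3.63 higher) and 73.7 ± 16.9 CPM in CD-PCs (-1.39), so not every early gene was low in the proximal tubule.

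Of 23 tested kinases and factors upstream of the early genes, 5 were higher and 1 lower in CD-PCs (median -0.08, against 0.26 over all genes), where 25.7% of all genes were higher, including *Crem*, a cAMP-responsive factor (1.13), and 7 were higher and 2 lower in endothelial cells (18.9% of all genes higher), including the SRF partner *Elk3* (4.14). Of 17 heat shock and unfolded protein genes, 11 were higher and 1 lower in CD-PCs (median 0.79), 10 were higher and 0 lower in the pelvic epithelium (15.8% of all genes higher), and 0 were higher and 13 lower in the distal convoluted tubule (8.51% of all genes lower). The inducible chaperones *Hspa1b*, *Hspa1a* and *Hspb1* stood 3.68, 4.09 and 3.84 log2 units higher in CD-PCs. Unlike the early genes, the genes of the lists in this paragraph were not kept out of clustering and may have helped to define the classes. Of 11 tubule injury genes, 4 were higher and 1 lower in CD-PCs and 7 were higher and 0 lower in the pelvic epithelium, with *Krt18*, a simple-epithelium keratin, at 470.4 ± 72.2 CPM in CD-PCs and 1039 ± 145 CPM in the pelvic epithelium.

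Outside these lists, the genes whose level over the 48 class-by-mouse sums was most like that of the 10 genes together were *Tmem50a* (Pearson r 0.88), *Arpc1b* (0.86), *Rps27rt* (0.86), *Actb* (0.85), *Tpm4* (0.85), *Mob1a* (0.85), *Ehd4* (0.84), *H2-D1* (0.84), *Cdc42* (0.84) and *Ptma* (0.84). The points share 4 libraries and their free RNA, and r was taken on log2(CPM + 10) as a description. Among the 10 genes themselves, *Junb* and *Btg2* had an r of 0.55 over the same sums, *Junb* and *Dusp1* 0.52, *Btg2* and *Dusp1* -0.05, and *Jun* and *Junb* -0.19.

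The effect of *Tfap2a* deletion was asked last. Of 74 tests of a gene in a class between genotypes, edgeR called 0 at an adjusted p under 0.05, where it called 0.00525% of all tests (7 of 133420). DESeq2 also called 0 of them, against 0.0288% of all. At an unadjusted p under 0.05 there were 5 of 74, against 2.96% of all tests. The log2 difference, knockout minus control, was negative in 43 tests and positive in 31, with a median of -0.06. Groups did not overlap in 22 of 74, a share of 29.7% against 29.6% of all tests.

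In CD-PCs, a class of the collecting duct, 8 of the 10 genes reached 10 UMIs, and edgeR called 0 of them and 0 of 13374 genes there (0% called). Among all genes 307 (2.3%) had an unadjusted p under 0.05 in CD-PCs, and none of the 8 was among them. Of the 8 estimates 6 were negative. *Btg2*, with 169.7 and 167 CPM in controls and 149 and 184 CPM in knockouts, differed by -0.02 ± 0.27 log2 units (unadjusted p 0.936 in edgeR). *Junb* differed by 0.17 ± 0.26 (p 0.54), *Klf6* by -0.01 ± 0.32 (p 0.981) and *Jun* by -0.22 ± 0.40 (p 0.59). *Ier2*, at 39.6 and 31.0 CPM against 27.4 and 30.9 CPM, was the gene whose groups did not overlap, by the small margin of control 2 over knockout 2, with -0.27 ± 0.32 (p 0.411), where 27.2% of all genes in CD-PCs did not overlap either.

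The Cre is also known to act in intercalated cells and in lower urinary tract epithelium. In the pelvic epithelium edgeR called 0 of 7 tested genes (0.0097% of all genes there), and 0 had an unadjusted p under 0.05. Of these 7 estimates 6 were positive, with a median of 0.35, and groups did not overlap in 2 (33.8% of all genes did not). These 2 were *Junb*, higher in both knockouts (84.5 and 100.3 CPM against 140.4 and 136 CPM, 0.61 ± 0.38, edgeR p 0.115), and *Ier2*, lower in both (80.6 and 57.0 CPM against 37.0 and 37.1 CPM, -0.81 ± 0.51, p 0.128). In intercalated cells edgeR called 0 of 5 (0% of all genes) and 0 came under an unadjusted p of 0.05; 3 estimates were negative, the median was -0.05, and only *Btg2* did not overlap (26.5% of all genes did not). The signs in the pelvic epithelium were not tested against those in CD-PCs.

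In CD-PCs *Dusp1* differed by -0.26 ± 0.52 (edgeR p 0.632), *Fos* by 0.02 ± 0.70 (p 0.977) and *Egr1* by -0.03 ± 0.86 (p 0.968), so a fall of 1 log2 unit lies within 2 SE of each of these 3 values, as it does for *Jun*. *Fosb* and *Atf3* stayed under 10 UMIs in CD-PCs and were not tested. Every adjusted p in CD-PCs was 1.00 after rounding. The sign of the difference held under all mice left out in turn for *Ier2* and *Junb*, but not for *Btg2* (0.12 without knockout 1), *Jun* (0.20 without knockout 1), *Klf6*, *Fos*, *Dusp1* (0.87 without control 1) or *Egr1* (2.19 without control 1).

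**Figure D5:**
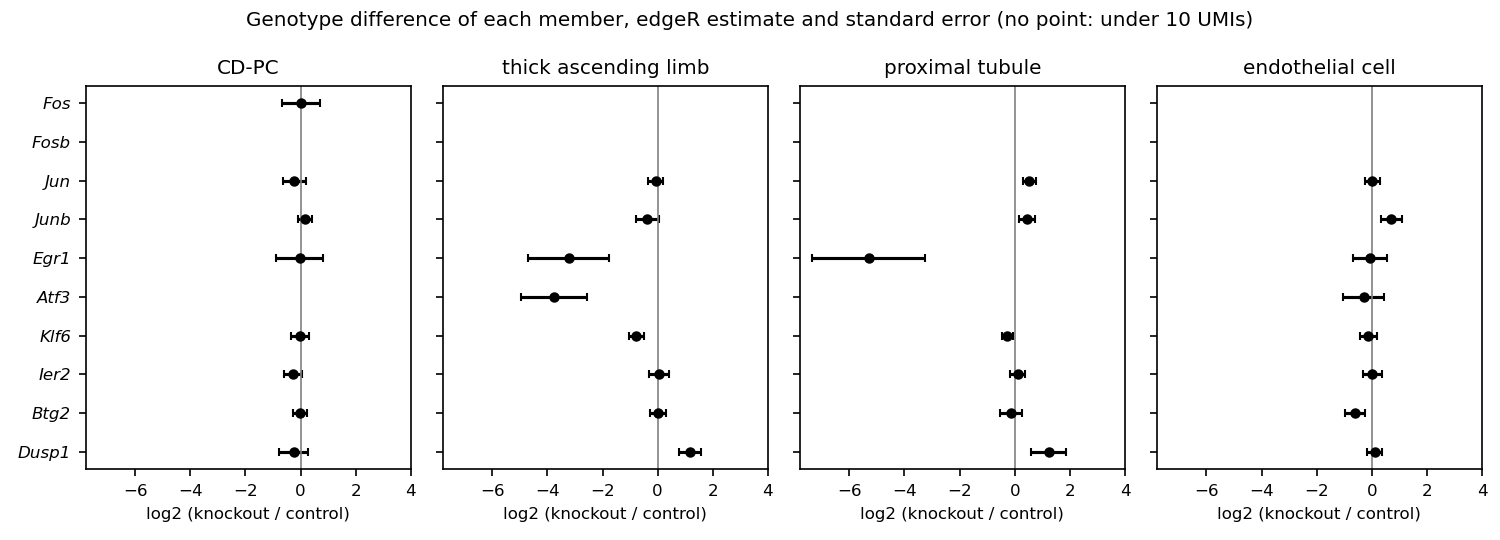
Log2 of knockout over control for each gene with at least 10 UMIs in CD-PC, thick ascending limb, proximal tubule and endothelial cell, as edgeR's estimate (point) with 1 SE to each side (bar), over 2 mice per group. The CD-PC estimates lie between -0.27 and 0.17, and the lowest estimate shown is that of *Egr1* in the proximal tubule (-5.29).

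The 5 tests at an unadjusted p under 0.05 were named after their values were seen, and 3 of them fell in the thick ascending limb, where 3.06% of all genes came under that p. *Dusp1* was 33.6 and 13.8 CPM in controls and 46.1 and 60.7 CPM in knockouts there (1.17 ± 0.40, edgeR p 0.0202, adjusted p 1.00). It passed the adjusted threshold with no filter on low counts (adjusted p 0.0170) but under no other alternative that kept all mice (0.11 to 1.00). Without knockout 1 it was 1.35 (adjusted p 0.0431), a fit of knockout 2 alone, the mouse highest in *Dusp1*, against both controls, in which the spread comes from the controls and knockout 2 is assumed to vary like them; without any other mouse the adjusted p was 0.985 to 1.00. *Klf6* was 36.5 and 52.8 CPM against 29.1 and 23.6 CPM (-0.78 ± 0.27, p 0.0229), and *Atf3* had 4 and 15 UMIs against 1 and 0 (-3.75 ± 1.20, p 0.0157). The others were *Egr1* in the proximal tubule, with the UMIs of control 2 (-5.29 ± 2.05, edgeR p 0.0455), and *Egr1* in interstitial cells, with 2 and 8 UMIs against 0 and 0 (-5.03 ± 2.11, p 0.0326). Those interstitial UMIs lay in 1 nucleus of control 1 and 2 nuclei of control 2.

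Whether the change in CD-PCs differed from that in the thick ascending limb or the proximal tubule was tested as an interaction. These tests had no term for the mouse, so both class sums of a mouse entered as separate samples although they share a library. Of 17 such tests edgeR called 0, against 0% of 16010 genes for the thick ascending limb and 0% of 18399 for the proximal tubule. The 3 lowest unadjusted p were 0.0505 for *Egr1* against the proximal tubule (5.13 ± 2.32), 0.0743 for *Fos* against the thick ascending limb (-3.36 ± 1.70), where *Fos* had 3 UMIs, and 0.0763 for *Dusp1* against the thick ascending limb (-1.42 ± 0.73). Over all classes edgeR also called 0 tests of the other lists. At an unadjusted p under 0.05, where 2.96% of all tests lay, there were 20 of 327 tests of other early genes (6.12%), 5 of 251 of upstream kinases and factors (1.99%), 8 of 185 of heat shock and unfolded protein genes (4.32%) and 9 of 73 of tubule injury genes (12.3%).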

How the data were processed

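Single-nucleus RNA-seq was measured in 4 mice, 2 per genotype. The authors trimmed and preserved the tissue in RNAlater, made 10x Genomics 3′ libraries and counted UMIs with Cell Ranger 3.0.2 against mm10. Each deposited matrix gives unnormalized UMI counts of 31053 genes, over 6794880 barcodes that include empty droplets, and whether introns were counted is not given in the sources used here.

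Of the 10000 barcodes with most UMIs, those were kept that had more than 500 but fewer than 4000 genes and a mitochondrial share below 5%. They were clustered after integration in Seurat 5.3.0 (under R 4.3.3; 2000 variable genes, 30 dimensions, resolution 0.5), and clusters were named from markers. Damaged (1063 nuclei) and mixed (724 nuclei) clusters were left out. Called doublets were kept, and left out as an alternative. UMIs were summed per mouse and class. Genes with at least 10 UMIs were tested with edgeR 4.0.16 (TMM, quasi-likelihood test, genotype as the term, Benjamini-Hochberg over all genes of a class) and DESeq2 1.42.0, with steps tested on simulated data. Classes were compared in 1 fit with the mouse as a term. Named were all 10 genes, and, for likeness, the 10 genes of highest correlation with at least 100 UMIs. The members, lists and tests were chosen with earlier results of these data known.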

Additional observations from a re-analysis of the deposited data

Results flagged for a closer look

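In 3 genes, genotype differences with no overlap had opposite signs in different classes, and the difference between classes was not tested. For *Jun*, both knockouts were above both controls in the proximal tubule (log2 0.53) and below them in the thin limb (-0.84) and distal convoluted tubule (-0.32). For *Ier2*, both knockouts were above both controls in the thin limb (0.56) and below them in the distal convoluted tubule (-1.50), CD-PCs (-0.27) and pelvic epithelium (-0.81). For *Btg2*, both knockouts were above both controls in the thin limb (0.72) and below them in intercalated cells (-0.15) and interstitial cells (-0.78). None of the 10 differences was called by edgeR. Groups did not overlap in 29.7% of the tests of the 10 genes and in 29.6% of all tests of a gene in a class. The *Ier2* difference in the distal convoluted tubule rests on 10 UMIs, and that in CD-PCs on the small margin of control 2 over knockout 2.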

How the results depend on the processing

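The number of the 10 genes called between genotypes was 1 with no filter on low counts (*Dusp1* in the thick ascending limb) and 0 under the other alternatives that kept all mice; it ranged from 0 to 1 with each mouse left out, and was 1 (the same test) without knockout 1. Each such fit leaves 1 mouse in a group, which is assumed to vary like the 2 of the other. Over all genes the 7 calls became 37 with DESeq2, 11 without TMM, 233 with no filter, 22 under 1% mitochondrial UMIs, 3 with free RNA subtracted and 61 to 231 with each mouse left out. No filter on low counts also gave 1 call in the tests of CD-PCs against other classes. Same-numbered mice deviated together (r 0.43 in CD-PCs and 0.32 to 0.51 in proximal tubule, thick ascending limb and endothelial cells). The labels give the 2 pairs only a shared number and do not say what it stands for. Their libraries were also alike in total UMIs (42138345 and 44964099 for number 1, 24998797 and 22179410 for number 2). The same held for the estimated free RNA (10.1% and 12.5% against 5.57% and 3.40%). With the replicate number as a block, 423 calls were made over all genes and 0 for the 10 genes. Of the 8 differences in CD-PCs, 6 were negative; under 1% mitochondrial UMIs 3 were, and with each mouse left out 2 to 7. Signs turned under 1% mitochondrial UMIs for *Klf6* (0.0031), *Dusp1* (0.87) and *Egr1* (1.56), without called doublets for *Klf6* (0.02) and *Fos* (-0.05), and for *Fos* also with no filter (-0.04), at resolution 0.8 (-0.0011) and with free RNA subtracted (-0.0073); *Egr1* was 0.14 with the block. With each mouse left out, the CD-PC differences ranged from -0.19 to 0.12 (*Btg2*), -0.75 to 0.20 (*Jun*), -0.53 to 0.39 (*Klf6*), -0.54 to 0.78 (*Fos*), -0.93 to 0.87 (*Dusp1*) and -0.96 to 2.19 (*Egr1*), and those between classes from -4.07 to 0.06 (*Egr1*, proximal tubule) and from -1.55 to 4.05 (*Fosb*, endothelial cells). Of the 10 genes, 3 (*Jun*, *Ier2* and *Btg2*) kept their highest class under 1% mitochondrial UMIs, which leaves 803 of 7226 nuclei of control 1. The class with the highest share of nuclei with a UMI was the same before and after thinning for 1 of the 10, and the class highest by thinned share was also highest by CPM for 6. The 50 calls between classes became 39 to 56 over the alternatives, and 23 of them were lost at least once; those of *Jun* and *Ier2* in the proximal tubule, *Ier2* in the distal convoluted tubule and *Atf3* in endothelial cells were lost under 1% mitochondrial UMIs alone. The cause was not tested. Depth limits *Fos*, *Fosb*, *Atf3* and *Egr1* most, with 18 to 204 UMIs each.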
